A study of Mus musculus with 9 samples.

Results

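The potassium channel genes of the mouse carry symbols that start with Kcn, and they encode the pore-forming and accessory subunits of the channels that let potassium leave or enter a cell. The genes described here were all those in the count table whose symbol is Kcn followed by a family letter or letters and a number. Of 98 such genes listed, 75 had at least 10 reads summed over the 9 libraries of the study and were tested, among 25128 genes tested in all. The genes were chosen by symbol and by summed raw count, and the family itself was chosen by the counts of Kcnh2, which were already known to differ between the treatments. The values of Kcnh2 are therefore given as a description with no test.

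The cells were round spermatids (RS), the haploid male germ cells that follow meiosis, sorted by flow cytometry from testes of adult Stra8-Tom mice over 10 weeks of age. These mice carry Stra8-iCre, a Cre recombinase driven by the germ cell promoter of Stra8, with a tdTomato reporter that Cre switches on, and the labels give their genotype as WT. RS were cultured for 24 h in 3 groups of 3 libraries each. The vehicle group (libraries 1 to 3) received 0.15% DMSO, the oxamate group (libraries 4 to 6) received 24 mM oxamate, an inhibitor of lactate dehydrogenase (LDH), with 0.15% DMSO, and the third group (libraries 7 to 9) received oxamate at 24 mM together with octyl-L-2HG at 0.3 mM, also in 0.15% DMSO. Octyl-L-2HG is an ester of L-2-hydroxyglutarate (L-2HG) that can enter cells. The medium of all groups held lactate and pyruvate, and no library received octyl-L-2HG without oxamate or another octyl ester. The study asked which transcripts change when LDH is inhibited and which return toward the vehicle level when L-2HG is added back.

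Potassium channels are built around a pore that is selective for potassium. Voltage-gated pores (Kcna, Kcnb, Kcnc, Kcnd, Kcnh, Kcnq) open on depolarization, inward rectifiers (Kcnj) pass current more easily into the cell, tandem-pore channels (Kcnk) carry the background leak, and the Kcnma, Kcnn, Kcnt and Kcnu pores respond to calcium, sodium or pH. Silent subunits (Kcnf, Kcng, Kcns, Kcnv) form no working channel alone and assemble with voltage-gated pores, while accessory subunits (Kcnab, Kcne, Kcnip, Kcnmb) tune the pores they bind. In sperm, the pH- and voltage-sensitive pore SLO3, the product of Kcnu1, carries the main potassium current and is needed for male fertility. Kcnh2 encodes the mouse ERG1 channel, the relative of human hERG that helps to repolarize the heart.

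The region at an annotated start of Kcnh2 is shown because this gene had the largest fold change of the family with oxamate, and that of Kcnk5 because, after Kcnh2, it fell the most of the well-expressed Kcn genes when octyl-L-2HG was added. Each window runs from 250 bases before to 50 bases after a transcript start in RefSeq (GRCm38.p6), which is another build than the GRCm39 of the counts, and is printed 5′ to 3′ on the strand of the gene. The Kcnh2 window is chr5:24329542-24329841, minus strand, and that of Kcnk5 is chr14:20181733-20182032, minus strand. Capitals mark each match on either strand to GGGCGG, the core of a GC box, and to CACGTG, an E-box.
Kcnh2: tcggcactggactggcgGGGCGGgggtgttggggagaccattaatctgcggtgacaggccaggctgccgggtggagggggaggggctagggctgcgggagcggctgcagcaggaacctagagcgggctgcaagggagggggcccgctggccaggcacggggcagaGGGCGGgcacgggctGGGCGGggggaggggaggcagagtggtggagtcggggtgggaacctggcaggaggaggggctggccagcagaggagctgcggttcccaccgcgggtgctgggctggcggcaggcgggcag
Kcnk5: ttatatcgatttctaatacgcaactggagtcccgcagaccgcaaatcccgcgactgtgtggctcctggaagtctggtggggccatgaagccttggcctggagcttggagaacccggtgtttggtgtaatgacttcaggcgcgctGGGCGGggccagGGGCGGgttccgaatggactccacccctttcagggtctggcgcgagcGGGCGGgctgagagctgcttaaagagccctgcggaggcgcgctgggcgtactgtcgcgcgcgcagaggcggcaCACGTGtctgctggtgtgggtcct

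The Kcnh2 window has a GC content of 74.3% with 19 CpG dinucleotides and 3 GC-box cores, and the Kcnk5 window has 63.7%, 26 CpG dinucleotides, 3 GC-box cores and 1 E-box. The median over 32851 RefSeq windows of the same length was 52.7% GC and 7 CpG dinucleotides, and over the windows of Kcn genes it was 58.3% and 9. In the GENCODE M21 annotation the Kcnh2 window sits at the start of the shorter coding transcript of 3193 bases, and the longer coding transcript of 4221 bases starts 22013 bases further upstream, outside this window. The counts are per gene and do not separate these transcripts. Windows were found for 52 of the 75 family members, 73 windows in all. GGGCGG on either strand was in 43.8% of them and in 35.7% of all windows, CACGTG in 8.22% and 7.15%, and TGACG, the shorter form of the cAMP response element, in 19.2% and 20.8%. The full cAMP response element TGACGTCA, which contains TGACG, was in 0 of the 73 windows and in 1.79% of all windows.

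The libraries held between 32339533 and 39888396 counted reads. Values below are normalized read counts, the raw count divided by 1 size factor per library between 0.867 and 1.13, as deposited, and log2 fold changes with their standard errors (SE) come from edgeR's quasi-likelihood test on the raw counts. A gene was called when its adjusted p, by the Benjamini-Hochberg method over all 25128 genes, was under 0.05. Per the study, the RS of each group were incubated in triplicate, and the sources used here do not say whether the 3 incubations held cells of separate mice, so p-values measure the spread between these incubations, which may be technical. Counts of libraries of a group differed by more than sampling noise. The chi-square divided by its degrees of freedom was 1.98 for oxamate libraries 5 and 6 and 16.7 and 20.7 for library 4 against these, so library 4 stood apart from its group. It was 10.7 and 10.1 for vehicle library 1 against libraries 2 and 3, which gave 5.86 against each other, and 2.27 to 6.42 among the libraries with both compounds, the highest for 7 and 9. The 10 fixed RS markers were present in every library, with a summed normalized count of 76600 to 79800 with vehicle, 72200 to 73200 with oxamate and 68900 to 70300 with both compounds. Of these markers, 4 were called lower with oxamate against vehicle, 6 lower with both compounds against oxamate, and 7 lower and 2 higher with both compounds against vehicle. The summed markers of spermatocytes were 5880 to 7230 over all libraries, and those of Sertoli cells 39.2 to 57.7, with Sox9 and Amh at 0 to 2.84. Macrophage markers ran from 152 to 176 with vehicle, 120 to 135 with oxamate and 110 to 129 with both compounds, and myoid markers from 76.4 to 103, 63.8 to 72.4 and 51.9 to 60.6. Spermatogonium markers ran from 195 to 213, 237 to 248 and 227 to 240 in the same order, endothelial markers from 182 to 223, 213 to 283 and 220 to 228, and Leydig markers from 28.4 to 38.2, 19.7 to 27.6 and 32.3 to 40.3. Insl3 and Hsd3b1, which define Leydig cells, were at 0 to 1.12, and red blood cell markers were at or under 0.962. The genes within a list moved differently. Of the macrophage markers, C1qb was 47.1 to 54.0 with vehicle and 12.2 to 17.3 with both compounds. Csf1r was 31.3 to 39.4 and 36.5 to 46.1 in these groups. Of the myoid markers, Cnn1 was 34.7 to 56.8 and 14.6 to 16.9, and Acta2 22.7 to 26.6 and 23.1 to 32.6. Of the spermatogonium markers, Gfra1 was 123 to 130 and 147 to 161, and Sohlh1 5.69 to 6.41 and 0 to 2.31. The part of these shifts in the results below was not tested. In bulk RNA fewer cells of a type, less RNA per cell and changes in single genes cannot be told apart.

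The Kcn family of RS was dominated by a few transcripts. Kcnu1, Kcne3 and the antisense RNA Kcnmb4os1 made up 57.8% of the summed normalized Kcn count with vehicle. Averaged over the 9 libraries, 7 of the 75 genes reached a normalized count of 1000, 24 reached 100, 24 lay between 10 and 100 and 27 lay under 10. The 23 genes left out had 0 to 9 reads in all, among them Kcnd2, Kcnj5 and Kcnk1 with 0 reads. Just inside the limit were Kcna10 with 12 reads and Kcnj14 and Kcnk18 with 13 each, and just outside were Kcnmb1 with 9 and Kcnj2 with 8. Kcnj8, which forms the pore of an ATP-sensitive channel in vessels, had 3 reads, and Kcna5 had 1.

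Levels of different genes were compared per kilobase of merged exon length (GENCODE M21), with vehicle. Kcnmb4os1 was highest at 5186 ± 130 (SD, n = 3) normalized counts per kilobase, followed by Kcne3, a single-span accessory subunit known for its assembly with KCNQ1 in epithelia, at 3395 ± 51.4 and Kcnu1 at 1729 ± 68.0. The antisense RNA Kcnab3os followed at 827 ± 55.1, and Kcnmb4, a beta subunit of the large-conductance calcium-activated channel, at 545 ± 41.6. Kcnj9 and Kcnj6, G-protein-gated inward rectifier subunits, stood at 326 ± 15.2 and 218 ± 11.5. Kcnj6, Kcnab2 at 212 ± 17.0, Kcnmb4os2 at 208 ± 12.9 and Kcng4 at 208 ± 26.0 did not differ beyond their spread. Kcnh2 stood at 28.4 ± 5.68, the 20th of the family, within the spread of Kcnc1 at 29.8 ± 1.81, Kcnc2 at 29.7 ± 3.65 and Kcnk2 at 27.2 ± 2.33. Kcnma1, the pore that Kcnmb4 is known to bind, stood at 8.83 ± 0.382. Kcnmb4 shares 355 exon bases with Kcnmb4os1 and 693 with Kcnmb4os2 on the opposite strand, and the strand setting of the counting is not given in the sources used here, so the reads of these genes cannot be fully told apart.

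**Figure D1:**
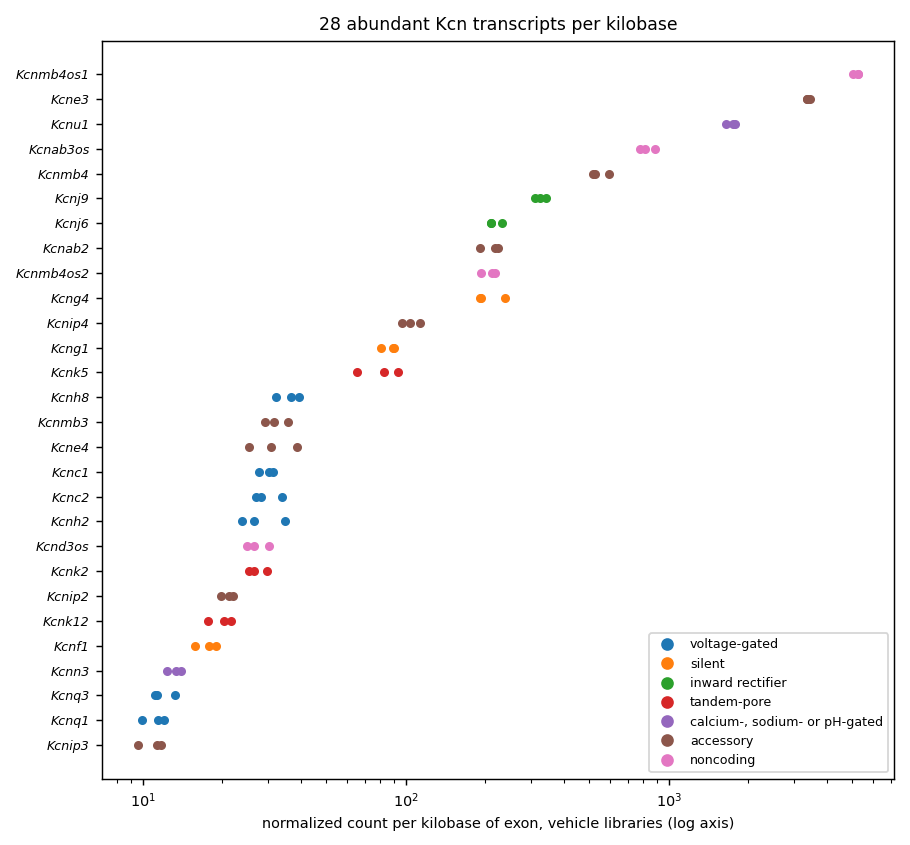
Normalized read count per kilobase of exon in the 3 vehicle libraries (points, log axis) for 28 of the highest Kcn genes, coloured by class of subunit. Kcnmb4os1, Kcne3 and Kcnu1 lie above 1000, and Kcnh2 lies among the voltage-gated genes near 28.4.

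In Kcnh2, the normalized read counts with vehicle were 129, 116 and 169. With oxamate they were 553, 588 and 577, and with both compounds 308, 281 and 285. All oxamate libraries lay above all vehicle libraries, and the libraries with both compounds lay between the other groups without overlap. The means were 138 ± 27.5, 573 ± 17.6 and 291 ± 14.4 (SD, n = 3). Kcnh2 was 4.17-fold higher with oxamate than with vehicle (log2 fold change 2.06, SE 0.11), was lower than that when octyl-L-2HG was added (log2 fold change -1.002, SE 0.10), and remained 2.08-fold above vehicle (log2 fold change 1.06, SE 0.12). Over the 16 alternative settings of the fit, the log2 fold change of Kcnh2 stayed between 1.96 and 2.22 for oxamate against vehicle.

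The 10 tested genes nearest to Kcnh2, 5 on either side in the GENCODE M21 order of gene starts, were examined in the same way. Of the 8 with at least 100 reads over the 9 libraries, 3 were called in the comparison of oxamate with vehicle, where 5.19% of all genes were called, and 9.67% of those averaging 100 normalized counts or more. Nupl2, a nucleoporin gene, was higher (log2 fold change 0.22, SE 0.06, adjusted p = 0.0489), and Gm43389, a transcript of unsettled type (log2 fold change -0.77, SE 0.19, adjusted p = 0.019) and Gm15587 (log2 fold change -0.51, SE 0.14, adjusted p = 0.045), which is annotated as antisense, were lower. The log2 fold changes of these 8 genes ran from -0.77 to 0.24, against 2.06 for Kcnh2. With both compounds, 0 of the 8 were called by edgeR against oxamate (11.2% of all genes) and 3 against vehicle (18% of all genes), 1 of them higher. Gm15589, an antisense RNA inside the span of Kcnh2 that shares no exon bases with it, had raw counts of 2, 5 and 5 with vehicle, 0, 1 and 0 with oxamate and 0, 0 and 0 with both compounds. It was called lower by edgeR with both compounds against vehicle (adjusted p = 0.0156) but not with oxamate against vehicle (adjusted p = 0.109). With counts this near 0 its fold changes are not given.

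**Figure D2:**
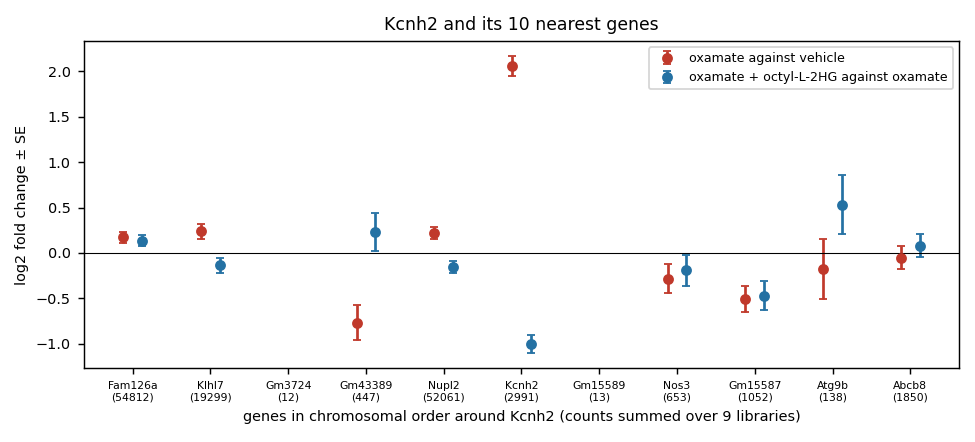
Log2 fold change with its standard error (3 libraries per group) of Kcnh2 and its 10 nearest tested genes in chromosomal order, for oxamate against vehicle and for both compounds against oxamate, with the summed reads of each gene in brackets. Genes under 100 summed reads have no point, and Kcnh2 stands apart at 2.06 while the other genes lie between -0.77 and 0.53.

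With Kcnh2 left out, since its values chose the family, 5 of the other 74 Kcn genes were called in the comparison of oxamate with vehicle, 5 higher and 0 lower. That is 6.76%, beside 5.19% called of all genes tested by edgeR, 3.97% higher and 1.22% lower. At an unadjusted p under 0.05 the count was 10, beside 17.3% of all genes. DESeq2 called the same 5 genes. Among the 23 other Kcn genes whose mean normalized count reached 100, 5 were called (21.7%), beside 9.67% of the 10715 genes of that level. They included Kcnq3, Kcnj6 and Kcng1, and by class they were 3 of the other 24 voltage-gated pores, 1 of 8 inward rectifiers and 1 of 6 silent subunits. None of the 10 tandem-pore, 8 calcium-, sodium- or pH-gated, 13 accessory and 5 noncoding genes was called by edgeR in this comparison, against 1, 1, 2 and 0 of them at the unadjusted threshold. The median log2 fold change over the 75 genes was 0.02 with oxamate against vehicle, beside -0.01 over all genes. It was -0.12 with both compounds against oxamate, beside -0.04 over all genes, and -0.11 with both compounds against vehicle, beside -0.05. Over the 24 well-expressed Kcn genes the medians were 0.04, -0.01 and 0.09 in the same order, beside 0.01, 0.01 and 0.03 over all genes of that level.

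When octyl-L-2HG was added to oxamate, 8 of the 74 Kcn genes other than Kcnh2 were called against oxamate alone, 2 higher and 6 lower, or 10.8% beside 11.2% of all genes. Higher calls were 3.18% of all genes and lower calls 8.06%. At an unadjusted p under 0.05 the count was 18, beside 23.6% of all genes, and among well-expressed genes 6 of 23 were called (26.1%), beside 19.8%. The lower genes included Kcnh6, Kcnh8, Kcnd1 and Kcnk5, and the higher genes were Kcng1 and Kcnj9. With both compounds against vehicle, 9 of the 74 were called, with Kcnq3, Kcnj6, Kcnj9, Kcng1 and Kcng4 among the 6 higher genes and Kcnh8, Kcnk5 and Kcnc1 as the 3 lower genes, or 12.2% beside 18% of all genes, with 7.48% of all genes higher and 10.6% lower. At an unadjusted p under 0.05 the count was 21, beside 30% of all genes, and among well-expressed genes 9 of 23 were called (39.1%), beside 29.5%. In the test of any difference among the 3 groups 10 were called, or 13.5% beside 19.8% of all genes, and 21 passed without adjustment, beside 31.5% of all genes. Of the well-expressed genes 8 of 23 passed the adjusted test of any difference (34.8%), beside 33.5%. Scaled to total counts, the split of both compounds against vehicle was 4 higher and 6 lower. Without oxamate library 4 the count for both compounds against oxamate rose to 15 and that for any difference to 20, and without library 5, 7 or 8 the former was 5. Without vehicle library 2, or without library 7, the count for both compounds against vehicle was 6.

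**Figure D3:**
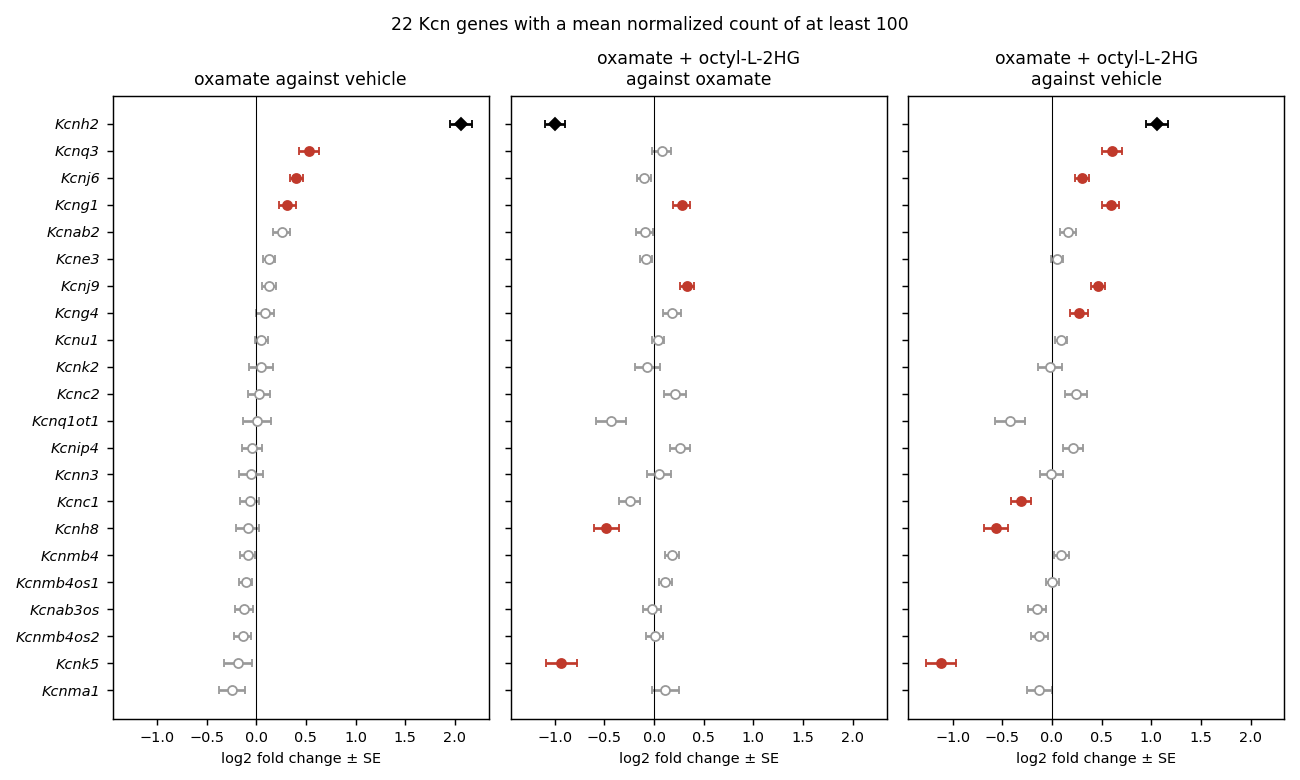
Log2 fold change with its standard error (3 libraries per group) of 22 Kcn genes whose mean normalized count reached 100, in the 3 comparisons. Filled red points passed an adjusted p of 0.05, open grey points did not, and Kcnh2 (black diamonds), at 2.06, -1.002 and 1.06, is shown as a description without a test.

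Among the other voltage-gated pores, Kcnq3, a subunit of the M-current channel of neurons, had 166, 164 and 195 normalized counts with vehicle, 246, 261 and 251 with oxamate and 266, 269 and 277 with both compounds. The vehicle libraries lay below all others. Kcnq3 rose by 0.53 on the log2 scale with oxamate (SE 0.10, adjusted p = 0.00213) and by 0.61 with both compounds (SE 0.10, adjusted p = 1.64e-04), while the change on adding octyl-L-2HG was 0.07 (SE 0.10, adjusted p = 0.719). Kcnq1, the cardiac and epithelial member of that family, had 34.6 to 58.1 normalized counts over all libraries and was not called in any comparison.

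Of the other Kcnh genes, Kcnh8 and Kcnh6 were called in at least 1 comparison. Kcnh8, an ELK-type channel, had 147, 168 and 179 normalized counts with vehicle, 142, 164 and 157 with oxamate and 105.6, 111 and 119.8 with both compounds. The vehicle and oxamate libraries overlapped (log2 fold change -0.09, SE 0.11, adjusted p = 0.77), and both groups lay above the libraries with both compounds. Kcnh8 fell by 0.48 against oxamate (SE 0.12, adjusted p = 0.013) and by 0.57 against vehicle (SE 0.12, adjusted p = 0.00184). The first of these was not called without library 5, 7 or 8 (adjusted p from 0.0596 to 0.0729).

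Kcnh6, which encodes ERG2 and is a close relative of Kcnh2, was far lower in count, with 13.3, 19.9 and 17.4 normalized counts with vehicle, 23.8, 17.3 and 31.8 with oxamate and 10.1, 9.22 and 7.49 with both compounds. Vehicle and oxamate overlapped (log2 fold change 0.52, SE 0.27, adjusted p = 0.332). It was lower with both compounds than with oxamate (log2 fold change -1.45, SE 0.32, adjusted p = 0.00457). Kcnh7, which encodes ERG3, Kcnh1, Kcnh3, Kcnh4 and Kcnh5 had 33 to 261 reads each over the 9 libraries, and none was called by edgeR in any comparison. For Kcnh4 all 3 oxamate libraries (36.2, 32.7 and 30.7) lay above vehicle (30.2, 28.4 and 28.4), with a log2 fold change of 0.20 (SE 0.21, adjusted p = 0.698). The libraries with both compounds (15.7, 27.7 and 26.2) lay below all others (log2 fold change -0.54 against oxamate, SE 0.23, adjusted p = 0.148). Kcnh7 had 0.888, 7.58 and 5.49 normalized counts with vehicle, 5.72, 9.62 and 7.67 with oxamate and 4.49, 3.46 and 3.74 with both compounds. Its oxamate libraries overlapped vehicle (log2 fold change 0.73, SE 0.51, adjusted p = 0.508) and lay above those with both compounds (log2 fold change -0.98, SE 0.54, adjusted p = 0.295). Kcnh4, Kcnh6 and Kcnh7 had the signs of Kcnh2 in both steps, but none of them was called with oxamate. Both steps share the oxamate libraries, so opposite signs can arise from these libraries alone. Against vehicle, these genes were lower with both compounds (log2 fold change -0.33, -0.94 and -0.25, not called), where Kcnh2 was higher. Kcnh1, Kcnh3, Kcnh5 and Kcnh8 had log2 fold changes of -0.27, -0.02, -0.01 and -0.09 with oxamate. Whether the fold changes of these genes differ from those of Kcnh2 was not tested.

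Kcnd1, a Kv4 pore of the transient A-type current, was another low gene, with 9.77, 12.3 and 10.99 normalized counts with vehicle, 16.2, 15.4 and 12.1 with oxamate and 3.37, 8.07 and 5.62 with both compounds. It fell by 1.38 on the log2 scale against oxamate (SE 0.37, adjusted p = 0.0183), a call lost without library 5, 7 or 9 (adjusted p from 0.0644 to 0.0939). Kcnc1, the fast Kv3.1 pore, had 296, 287 and 263 normalized counts with vehicle, 292, 259.9 and 252 with oxamate and 219, 228 and 242 with both compounds. It was lower with both compounds than with vehicle (log2 fold change -0.31, SE 0.10, adjusted p = 0.0331), a call lost without library 1, 2, 7 or 8 (adjusted p from 0.1 to 0.135) and with DESeq2 or no filter on low counts (adjusted p from 0.0666 to 0.0933). Its relative Kcnc2 had 193 to 263 normalized counts and was not called.

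**Figure D4:**
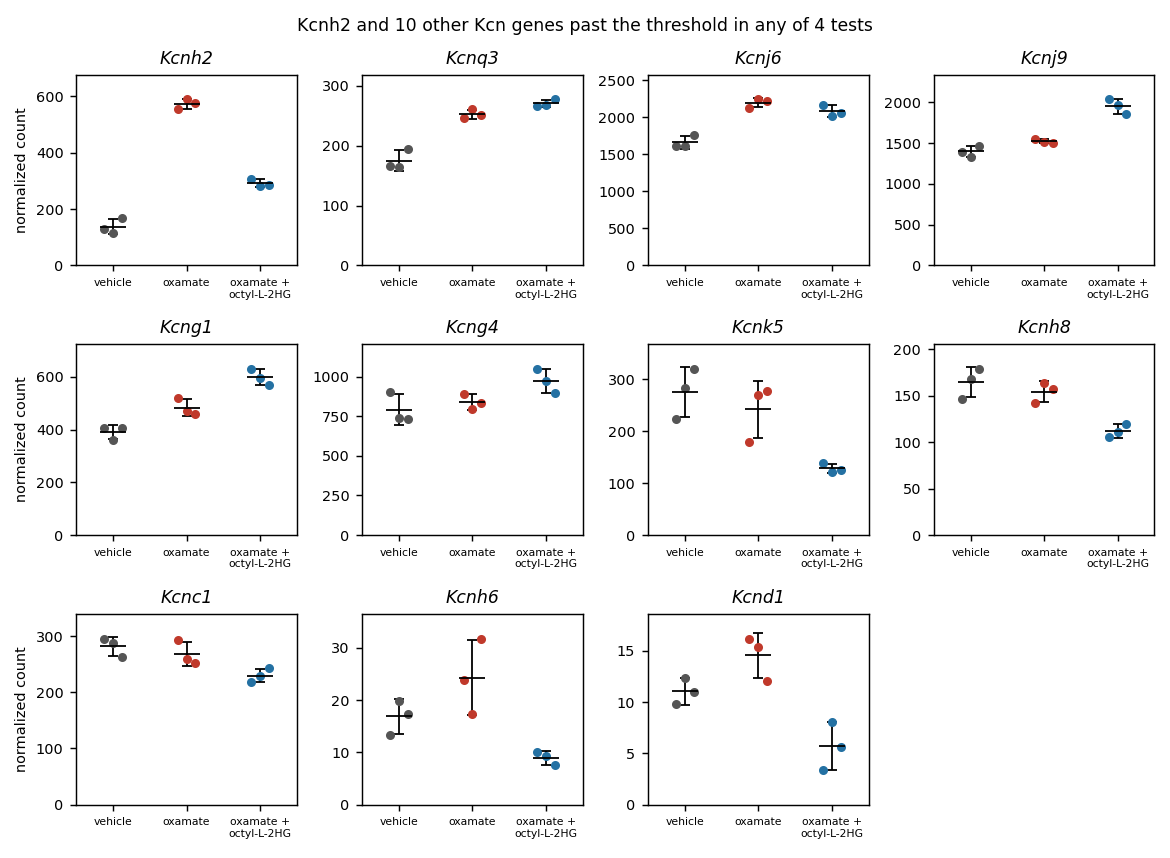
Normalized read count in each library (points) with the mean and SD of each group of 3 (black bars) for Kcnh2 and 10 other Kcn genes called in at least 1 test, each on its own axis from 0. Kcnh2 is highest with oxamate, Kcnj9 and Kcng1 are highest with both compounds, and Kcnk5 and Kcnh8 are lowest with both compounds.

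The silent subunits Kcng1 and Kcng4, which are known to assemble with voltage-gated pores, were highest with both compounds. Kcng1 had 405, 362 and 407 normalized counts with vehicle, 520.1, 472 and 459 with oxamate and 630.0, 596 and 569 with both compounds, a stepwise order with no overlap. It rose by 0.31 on the log2 scale with oxamate (SE 0.09, adjusted p = 0.0393), by a further 0.28 with octyl-L-2HG (SE 0.09, adjusted p = 0.0381) and by 0.59 from vehicle to both compounds (SE 0.09, adjusted p = 4.6e-05). The oxamate step was not called without library 1, 2, 3, 4, 5, 7, 8 or 9 (log2 fold change from 0.25 to 0.34, adjusted p from 0.0562 to 0.202), nor with length offsets or when only vehicle and oxamate were fitted (adjusted p from 0.073 to 0.11). The second step was not called without library 5, 6, 7, 8 or 9 (adjusted p from 0.0661 to 0.16), nor with total counts as the scaling (adjusted p = 0.0731).

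Kcng4 had 906, 737 and 733 normalized counts with vehicle, 892, 798 and 831 with oxamate and 1049, 974 and 894 with both compounds. The first vehicle library overlapped both treated groups, and Kcng4 was called with both compounds against vehicle (log2 fold change 0.27, SE 0.09, adjusted p = 0.0391). This call was lost without library 2, 3, 7 or 8 (adjusted p from 0.11 to 0.194) and with total counts or length offsets as the scaling (adjusted p from 0.0568 to 0.106). Kcnf1, another silent subunit, had 74.1 to 97.7 normalized counts and was not called.

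The inward rectifiers of RS were almost entirely Kcnj6 and Kcnj9, the GIRK2 and GIRK3 subunits of G-protein-gated channels, since the GIRK partners Kcnj3 and Kcnj5 had 5 and 0 reads over the 9 libraries. Kcnj6 had 1619, 1612 and 1768 normalized counts with vehicle, 2131, 2243 and 2218 with oxamate and 2174, 2025 and 2056 with both compounds. Both treated groups lay above vehicle and overlapped each other. Kcnj6 rose by 0.40 on the log2 scale with oxamate (SE 0.07, adjusted p = 7.66e-04) and by 0.30 with both compounds (SE 0.07, adjusted p = 0.00297), and the change on adding octyl-L-2HG was -0.10 (SE 0.07, adjusted p = 0.403).

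Kcnj9 had 1396, 1333 and 1463 normalized counts with vehicle, 1548, 1516 and 1497 with oxamate and 2034, 1971 and 1849.8 with both compounds. It lay 0.13 above vehicle with oxamate, which did not pass (SE 0.07, adjusted p = 0.365), and rose by 0.33 when octyl-L-2HG was added (SE 0.07, adjusted p = 0.00286) and by 0.46 from vehicle to both compounds (SE 0.07, adjusted p = 5.73e-05). The remaining 6 inward rectifiers had 13 to 62 reads each, among them Kcnj11, the pore of the ATP-sensitive channel of the beta cell, with 50 reads and 3.55 to 7.70 normalized counts per library.

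Kcnk5, which encodes the acid-sensitive leak channel TASK-2, had the largest fall of a well-expressed Kcn gene when octyl-L-2HG was added, after Kcnh2. It had 223, 282 and 319.6 normalized counts with vehicle, 178, 270.5 and 276 with oxamate and 138, 121 and 125 with both compounds. The vehicle and oxamate libraries overlapped, and all of them lay above the libraries with both compounds. Kcnk5 lay -0.19 from vehicle with oxamate (SE 0.14, adjusted p = 0.554), fell by 0.94 on the log2 scale against oxamate (SE 0.16, adjusted p = 4.72e-04) and fell by 1.12 against vehicle (SE 0.15, adjusted p = 2.08e-05). In library 4 it was lower than in the other oxamate libraries, and without that library the fall against oxamate was still called. Kcnk2, the mechanosensitive leak channel TREK-1, had 123 to 161 normalized counts over all libraries and a log2 fold change of 0.05 (SE 0.12) with oxamate.

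The sperm channel Kcnu1 had the highest mean normalized count of the Kcn genes with vehicle and was not called. Its normalized counts were 6175, 6539 and 6664 with vehicle, 6379.8, 6744 and 6907 with oxamate and 6837, 7101 and 7028 with both compounds. The log2 fold changes were 0.05 with oxamate (SE 0.06, adjusted p = 0.743), 0.04 on adding octyl-L-2HG (SE 0.06, adjusted p = 0.768) and 0.09 with both compounds against vehicle (SE 0.06, adjusted p = 0.35). Kcnma1, the calcium-activated SLO1 pore, had 108 to 157 normalized counts, Kcnn3, a small-conductance calcium-activated pore, had 121 to 149.9, and Kcnn4, the intermediate-conductance pore, had 4.68 to 10.99.

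None of the 13 accessory subunits was called by edgeR in the 3 comparisons, against 2, 4 and 2 at an unadjusted p under 0.05, and DESeq2 called none of them either. Over all genes 5.19%, 11.2% and 18% were called in these comparisons, and 17.3%, 23.6% and 30% passed without adjustment. Kcne3 had 5978, 5997 and 6145 normalized counts with vehicle, 6513, 6609 and 6663 with oxamate and 6231, 6342 and 6482 with both compounds, so that the groups did not overlap, but the differences were small (log2 fold change 0.13 with oxamate, SE 0.06, adjusted p = 0.258). Kcnab2, a beta subunit related to aldo-keto reductases, had 1222, 1072 and 1248 with vehicle and 1575, 1345 and 1291 with oxamate (log2 fold change 0.26, SE 0.08, adjusted p = 0.0842). Kcnmb4 had 1592 to 2015 over all libraries. Among the 5 noncoding RNAs, Kcnq1ot1, the imprinted antisense transcript of the Kcnq1 locus, had 175, 253 and 277 normalized counts with vehicle, 201, 258 and 249 with oxamate and 155, 209 and 170.4 with both compounds, and its log2 fold change against oxamate was -0.43 (SE 0.15, adjusted p = 0.0663). Kcnmb4os1 had 3884 to 4608, Kcnmb4os2 374 to 443, Kcnab3os 401 to 502 and Kcnd3os 29.5 to 41.7 normalized counts.

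Subunits that are known to work together can be compared within a library, where the ratio of their raw counts does not depend on the scaling. The pairs were chosen after the values were seen, so the ratios are given without a test. The ratio of Kcnj6 to Kcnj9 was 1.16, 1.21 and 1.21 with vehicle, 1.38, 1.48 and 1.48 with oxamate and 1.07, 1.03 and 1.11 with both compounds, without overlap between groups.

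**Figure D5:**
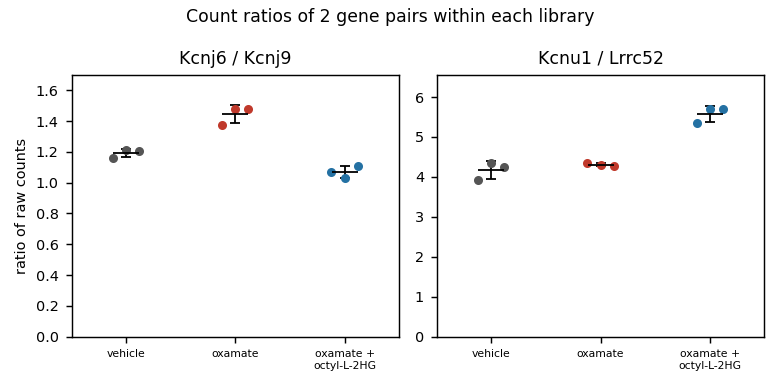
Ratio of raw read counts within each library (points), with the mean and SD of each group of 3 (black bars), for 2 gene pairs, each on its own axis from 0. The ratio of Kcnj6 to Kcnj9 is highest with oxamate (1.38 to 1.48), and that of Kcnu1 to Lrrc52 is highest with both compounds (5.34 to 5.71).

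Other genes of potassium handling were taken from a fixed list of 49 channel partners, pumps and transporters, of which 40 were tested. With oxamate 2 were called higher and 0 lower by edgeR, beside 3.97% and 1.22% of all genes, and 3 and 0 at an unadjusted p under 0.05. With octyl-L-2HG added to oxamate 1 was higher and 5 lower, beside 3.18% and 8.06%, and 3 and 11 without adjustment. With both compounds against vehicle 1 was higher and 5 lower, beside 7.48% and 10.6%, and 2 and 7 without adjustment. Lrrc52, the leucine-rich repeat subunit that SLO3 requires in sperm, had 1575, 1502 and 1568 normalized counts with vehicle, 1468, 1567 and 1617 with oxamate and 1280.2, 1247 and 1231 with both compounds. It fell by 0.33 against oxamate (SE 0.07, adjusted p = 0.00281), and the ratio of Kcnu1 to Lrrc52 was 3.92 to 4.35 with vehicle, 4.27 to 4.35 with oxamate and 5.34 to 5.71 with both compounds. Atp1a4, the sperm isoform of the sodium-potassium pump, had 20363 to 22642 with vehicle, 20675 to 21393 with oxamate and 18438 to 19072 with both compounds, a fall of 0.20 against oxamate (log2 fold change -0.20, SE 0.06, adjusted p = 0.0365). Atp12a, the nongastric proton-potassium pump, was lower with both compounds than with oxamate (log2 fold change -1.40, SE 0.26, adjusted p = 0.0011), as was the transporter Slc12a8 (log2 fold change -0.45, SE 0.11, adjusted p = 0.012). Atp12a had only 262 reads over the 9 libraries. Slc9c1, the sperm sodium-proton exchanger, was higher (log2 fold change 0.24, SE 0.07, adjusted p = 0.0257). Dpp6, a partner of Kv4 pores, was higher with oxamate (log2 fold change 0.48, SE 0.14, adjusted p = 0.0442) and lower with octyl-L-2HG added (log2 fold change -0.51, SE 0.14, adjusted p = 0.0203). Its oxamate libraries overlapped vehicle (145.8 to 218.2 against 113.7 to 146.9 normalized counts). Tmem38b, a potassium-permeable channel of the endoplasmic reticulum, was higher with oxamate (log2 fold change 0.46, SE 0.11, adjusted p = 0.0139). The calls of these listed genes were not run under the alternative settings.

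The Kcn genes were long, with a median merged exon length of 4508 bases against 2947 for all genes tested, and fold changes moved with length. Among well-expressed genes, the median of log2 fold changes with oxamate was -0.10 in the shortest of 5 length bins and 0.07 in the longest, and 9 of the 24 well-expressed Kcn genes were in the longest bin. With offsets that level this trend, 4 Kcn genes other than Kcnh2 were called with oxamate against vehicle, 10 with both compounds against oxamate and 10 with both compounds against vehicle. The last count was 5 higher and 5 lower, beside 6 and 3 without the offsets.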

How the data were processed

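PolyA RNA of RS was sequenced in 9 libraries, 3 per group, and groups and library numbers were taken from the labels. Per the labels and the study's methods, the authors trimmed the reads with cutadapt 2.10, aligned them with TopHat2 2.1.1 to GRCm39, and deposited the raw counts of reads per gene given by HTSeq 2.01. A second set of deposited columns holds a normalized signal, obtained by the authors by dividing each count by a DESeq2 1.36.0 size factor. The instrument differs between the labels and the methods, and the strand setting of the counting is not given in the sources used here. Of 55414 genes listed, 49164 have counts, and edgeR 4.0.16 (R 4.3.3) was run on the 25128 with at least 10 summed counts (TMM, 1 robust quasi-likelihood fit of all 9 libraries, group as the only term, Benjamini-Hochberg adjustment, threshold 0.05). Merged exon lengths were taken from GENCODE M21 (GRCm38) by gene identifier, for 99.6% of genes tested, and promoter windows from RefSeq. Alternatives were DESeq2 1.42.0, other scalings, filters, a threshold of 0.01, offsets over 20 length bins, fits of only 2 groups and each library left out.

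The genes named are Kcnh2 and the other Kcnh genes, each Kcn gene called in any of the 4 tests, the 10 highest per library and per kilobase with vehicle, Kcn genes known in sperm or energy sensing, noncoding Kcn genes, called partners, the neighbours of Kcnh2, and values beside them for contrast. Members, lists and rules were chosen with earlier results of these data known. The pairs for count ratios, and Kcnc2, Kcnf1, Kcnk2, Kcnn3, Kcnj3, Kcnj5 and the genes next to the count limit, were named after their values were seen. Genes that the rule covers but the text does not name are not reported here.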

Additional observations from a re-analysis of the deposited data

How the results depend on the processing

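The counts of called Kcn genes are given without Kcnh2, a choice made after seeing the data, and counting Kcnh2 added 1 to each of them in every setting run. The count with both compounds against oxamate, 8, was 4 at an adjusted p under 0.01 (5 of 9 with Kcnh2), and the other counts moved by at most 1.5 times under every alternative that kept all libraries. With each library left out, the counts ran from 4 to 6 for oxamate against vehicle, from 5 to 15 for both compounds against oxamate, from 6 to 13 for both compounds against vehicle, and from 9 to 20 for any difference among the groups. With Kcnh2 these ranges are 5 to 7, 6 to 16, 7 to 14 and 10 to 21. The highest values of the last 3 came without oxamate library 4, and the lowest of the second without library 5, 7 or 8. The cause was not tested. With total counts as the scaling, both compounds against oxamate gave 1 higher and 7 lower calls, beside 2 and 6. Of the gene values under the alternatives, those of Kcnh2 included, 487 kept their direction and side of the threshold. The 487 include comparisons that were not called in the main fit. Of the rest, 34 lost the call, 5 gained one and 0 turned, and DESeq2 gave no adjusted p for Kcnd1 in 2 comparisons. All 34 losses fell on calls of Kcng1, Kcng4, Kcnc1, Kcnd1 and Kcnh8. The oxamate step of Kcng1 alone was lost in 10 of 16 alternatives. No alternative with a p ended the calls of Kcnq3 and Kcnj6 with oxamate or of Kcnj9 and Kcnk5 with octyl-L-2HG. No paired analysis was possible because the labels number the libraries 1 to 9 and the groups share no number. Genes with few reads, such as Kcnd1 and Kcnh6, are limited by depth.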
